A study of Mus musculus with 18 samples.

Results

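The extracellular matrix of the brain is built on hyaluronan, a long sugar chain. Chondroitin sulphate proteoglycans (CSPGs) are core proteins that carry chondroitin sulphate chains. The lecticans neurocan, brevican, versican and aggrecan bind hyaluronan, link proteins lock that bond, and tenascins cross-link the lecticans at their other end. This mesh is loose in the embryonic brain and condenses into perineuronal nets around mature neurons. The genes described here code for the link protein *Hapln1*, the lecticans *Ncan*, *Bcan* and *Vcan*, the membrane CSPGs *Ptprz1* and *Cspg5*, the tenascins *Tnr* and *Tnc*, and the hyaluronan receptor *Cd44*. They were taken by name from the deposited table, where 9 of 9 were found among 12012 genes, so none was lost to the removal of genes with low values before deposit.

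The study asked how *Fibcd1*, which codes for a membrane receptor of chondroitin sulphate, shapes the response of neurons to CSPGs. Hippocampal cells of E18.5 mouse pups, wild type (WT) or homozygous for the *Fibcd1* allele tm1Lex (KO) on a C57BL/6J background, were plated on coverslips coated with CSPGs, and poly-A RNA was sequenced a few days later. The groups compared are 4 WT CSPG and 4 KO CSPG libraries, replicates A to D. The study counts each replicate of a genotype as a preparation of cells. Whether a WT CSPG and a KO CSPG library of the same letter share a preparation is not given. The labels list 5 WT CSPG samples, and the one without values in the table was not analysed here. The deletion is present in all cells of the KO embryos, and both groups were grown on the coating. Cultures without the coating were not analysed here, so nothing below measures the response to CSPGs.

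With 1 step of the values taken as 1 read, reads over the genes of the table ranged from 10099564 to 11174615 in WT CSPG and from 10541445 to 11647202 in KO CSPG. Values are normalized counts, that is, reads scaled by the size factor of their library. *Fibcd1* had 54.3, 70.4, 60.1 and 182 normalized counts in WT CSPG A to D and 0.970, 0.932, 7.16 and 4.74 in KO CSPG A to D, so the libraries carried the genotype of their labels. The labels call the cells neurons, and the 10 neuron markers listed were all in the table, but so were the 10 astrocyte and radial glia markers and 8 oligodendrocyte lineage markers. *Gfap*, the filament protein of astrocytes, had 19961 normalized counts on average in WT CSPG. *Ttr*, made by the choroid plexus, had 11.6 to 3529 normalized counts in WT CSPG and 5.11 to 243 in KO CSPG. The summed values of 4 Y-linked genes were between 1557 and 1935 in WT CSPG and between 878 and 1092 in KO CSPG, so the share of male embryos and the genotype cannot be told apart for any difference below. In such bulk samples, fewer cells of a type and less RNA per cell cannot be told apart either.

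Levels were first compared between the genes per kilobase of their exons, using the lengths in the deposited table. Neurocan, the lectican of the developing brain, stood far above the others. *Ncan* had 1901 ± 154 normalized counts per kilobase in WT CSPG and 1865 ± 18.8 in KO CSPG (SD, n = 4 in each). *Bcan* followed with 552 ± 76.3 and 607 ± 28.5 normalized counts per kilobase (SD, n = 4), and *Ptprz1* with 334 ± 32.7 and 340 ± 11.9 (SD, n = 4). At the other end, *Vcan* had 77.1 ± 2.02 and 67.4 ± 5.27 normalized counts per kilobase (SD, n = 4). The highest and the lowest gene differed 24.6-fold per kilobase in WT CSPG and 27.7-fold in KO CSPG.

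The order per kilobase in WT CSPG was *Ncan*, *Bcan*, *Ptprz1*, *Tnc*, *Cspg5*, *Hapln1*, *Cd44*, *Tnr* and *Vcan*. In that group the ranges of the libraries overlapped between *Ptprz1* and *Tnc*, between *Tnc* and *Cspg5* and between *Tnr* and *Vcan*, so the order within these pairs is not beyond their spread with these lengths. Per kilobase of the longest GENCODE M21 transcript, *Ptprz1* had 590.0 normalized counts in WT CSPG and *Tnc* had 315, so their nearness depends on the length used. In KO CSPG, 7 of the 9 genes had the same rank and *Cspg5* came before *Tnc*, with ranges that did not overlap. *Hapln1* had rank 6 in both groups, at 145 ± 6.50 normalized counts per kilobase in WT CSPG and 208 ± 11.4 in KO CSPG (SD, n = 4).

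**Figure D1:**
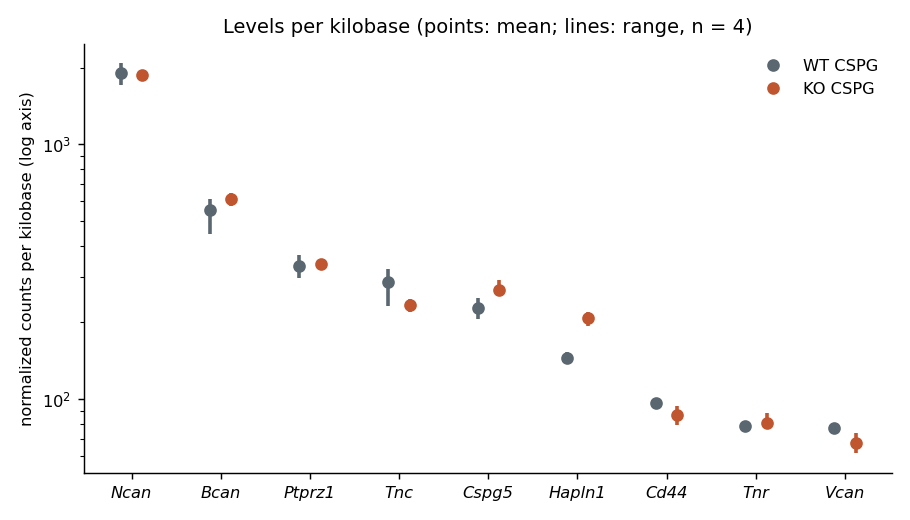
Normalized counts per kilobase (log axis) of the 9 genes in WT CSPG and KO CSPG, with points for means and lines for the range of 4 libraries. *Ncan* is at 1704 or more in every library, and only *Cspg5* and *Tnc* trade places between the genotypes.

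The question put to the data was which of these genes differed by genotype on the coating. In uncoated cultures the study found genes of non-neuronal cells among the top differences of KO from WT. It proposes that these may reflect differing numbers of glia, and went on to compare only cultures of the same genotype. *Hapln1* rose and *Vcan* fell, and the other 7 genes did not pass the test. That is 1 gene higher, where 1.09% of all genes tested were called higher, and 1 gene lower, where 1.79% were called lower (2.88% in either direction). These shares stand for 131 genes higher and 215 lower, and with upper-quartile scaling of the values there were 182 higher and 178 lower. The test was limma on log2(value + 1), with Benjamini-Hochberg adjustment over all 12012 genes, and a gene was called at an adjusted p under 0.05. The median log2 fold change was 0.03 over the 9 genes and 0.000156 over all genes.

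**Figure D2:**
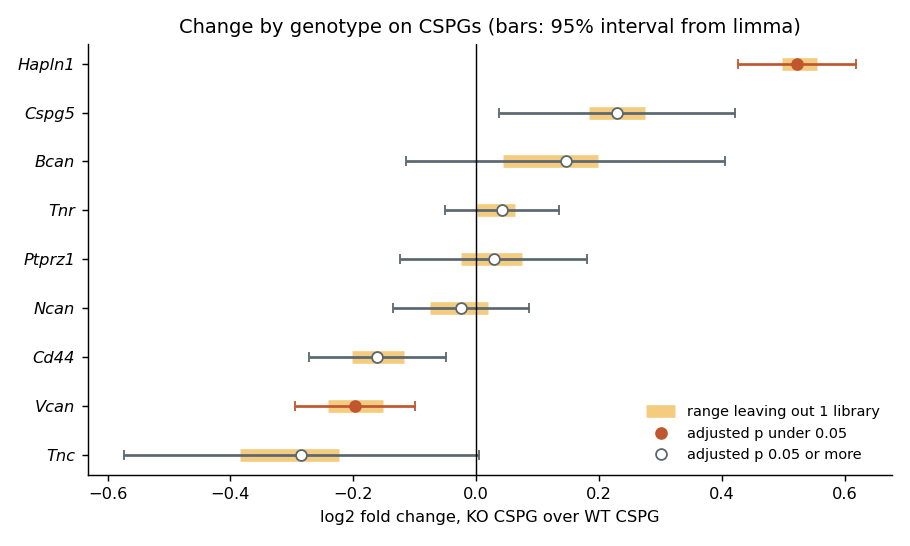
Log2 fold change (KO CSPG / WT CSPG) of each gene, with the 95% interval from limma (bars) and the range of the estimate when each library is left out (yellow). The intervals of *Hapln1* (0.43 to 0.62) and *Vcan* (-0.29 to -0.10) lie on opposite sides of 0.

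*Hapln1* codes for the link protein that clamps a lectican onto hyaluronan. It lies on the plus strand of chromosome 13 of GRCm38 (ENSMUSG00000021613, 89540636 to 89611832). The WT CSPG libraries A to D had 773, 696, 718 and 740 normalized counts of *Hapln1*, and the KO CSPG libraries had 1106, 1030.3, 1091 and 981. Every KO CSPG library was above every WT CSPG library, and the groups did not overlap for 9.22% of all genes. The means were 732 ± 32.9 and 1052 ± 57.6 normalized counts (SD, n = 4), which is 1.44-fold higher in KO CSPG (95% interval from limma 1.34 to 1.54). The log2 fold change was 0.52 (standard error 0.05, adjusted p = 6.86e-08 from limma). It ranked 5 by p among all genes, and leaving out any 1 library gave a log2 fold change from 0.50 to 0.56.

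*Vcan* codes for versican, a large lectican of the embryonic brain that repels growing axons. It lies next to *Hapln1*, on the minus strand of chromosome 13 (ENSMUSG00000021614, 89655312 to 89742509). The WT CSPG libraries A to D had 1089, 1141, 1092 and 1140.3 normalized counts of *Vcan*, and the KO CSPG libraries had 950.2, 1066, 885 and 998. The groups did not overlap, but the highest KO CSPG library was close to the lowest WT CSPG library. The means were 1116 ± 29.2 and 975 ± 76.2 normalized counts (SD, n = 4), a ratio of 0.872 (95% interval from limma 0.815 to 0.933). The log2 fold change was -0.20 (standard error 0.05, adjusted p = 0.0203 from limma). The call was lost without the WT CSPG replicate B (adjusted p = 0.0556 from limma), without the KO CSPG replicate A (adjusted p = 0.0825 from limma) and without the KO CSPG replicate C (adjusted p = 0.102 from limma). It was also lost when the prior variance did not follow the mean (adjusted p = 0.182 from limma).

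**Figure D3:**
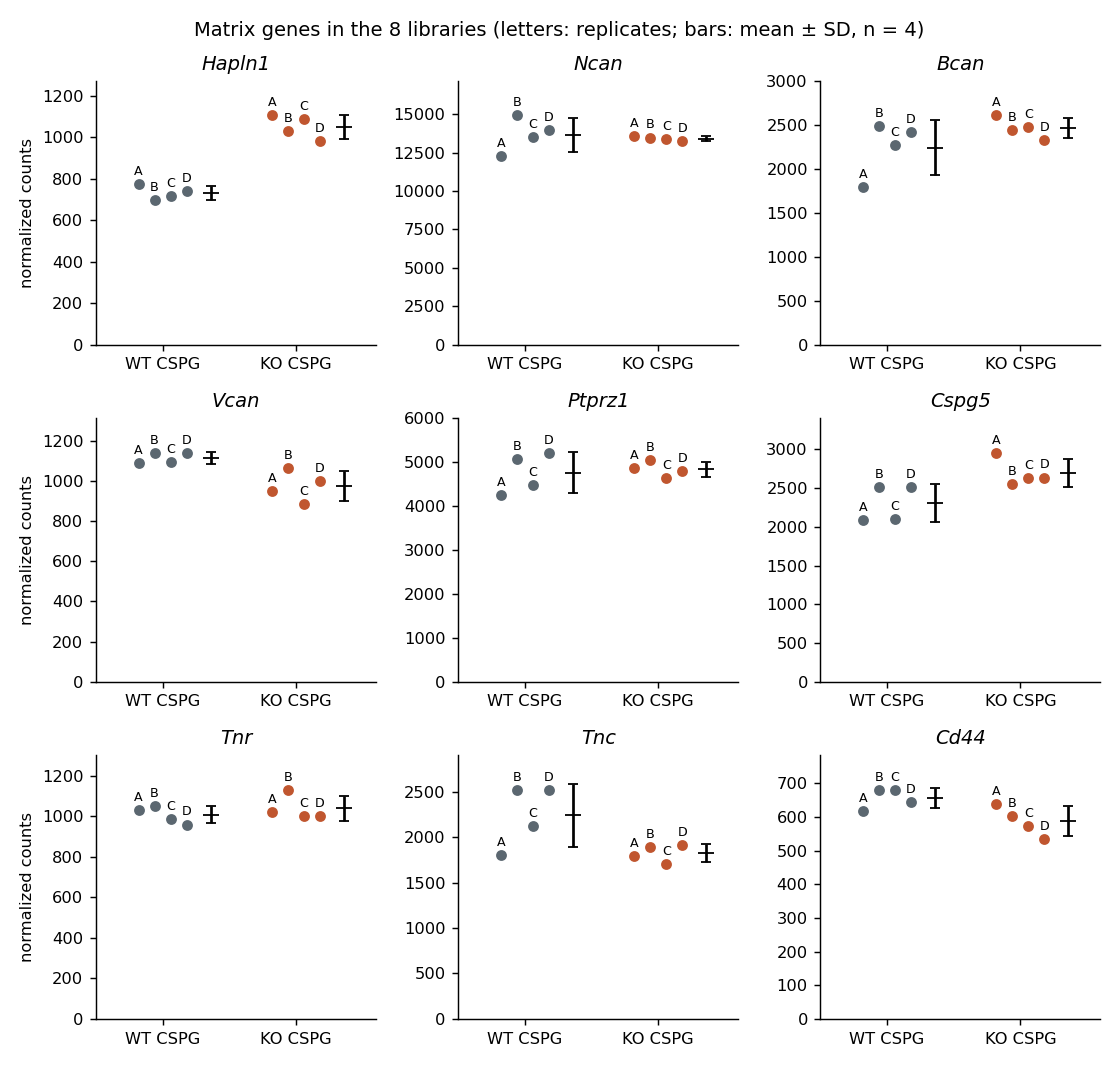
Normalized counts (linear axes from 0) of each gene in the 8 libraries, with letters for the replicates and bars for mean ± SD of 4 libraries. The groups are apart for *Hapln1*, *Vcan* and *Cspg5*, as for 9.22% of all genes, and overlap for the other genes shown.

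Some values moved with these differences. The cell markers were listed with earlier results of these data known. Of 8 oligodendrocyte lineage markers, 8 were in the table and 2 were called higher (*Olig1* and *Olig2*), where 1.09% of all genes were. Their summed level was between 1083 and 1482 normalized counts in WT CSPG and between 1769 and 1998 in KO CSPG, without overlap. *Olig2*, a transcription factor of that lineage, had 159, 191, 144 and 161 normalized counts in WT CSPG A to D and 291, 257, 296 and 287 in KO CSPG A to D. *Pdgfra* had 200 and 376 normalized counts on average in WT CSPG and KO CSPG, without overlap, as was so for 9.22% of all genes. It was not called (adjusted p = 0.253 from limma). *Sox10*, with 52.4 and 55.3 normalized counts on average, and *Gpr17*, with 84.3 and 78.0, overlapped between the groups. Of the 8 markers, 7 had a log2 fold change above 0. Oligodendrocyte precursors are known to make several of the CSPGs and tenascins described here, and the part of these cells in the differences was not tested. The summed level of the 10 astrocyte and radial glia markers overlapped between the groups, from 39811 to 48673 and from 46328 to 51374 normalized counts. None of the 10 was called, and 7 had a log2 fold change above 0. *Aqp4* had 3265 and 4063 normalized counts on average in WT CSPG and KO CSPG, without overlap (adjusted p = 0.216 from limma). Of 10 neuron markers, 0 were called higher and 1 lower, where 1.79% of all genes were called lower. Their sum was between 65812 and 68981 normalized counts in WT CSPG and between 66387 and 67442 in KO CSPG. The marker called lower was *Neurod6*, a transcription factor of excitatory neurons, with 6432, 6649, 6320.4 and 5865 normalized counts in WT CSPG A to D and 5782, 5297, 5287 and 5775 in KO CSPG A to D (adjusted p = 0.0118 from limma). The groups did not overlap for *Neurod6*, and its part in the differences was not tested. In the other marker lists no gene was called. Log2 fold changes were above 0 for 5 of 5 microglia markers in the table, 4 of 4 of fibroblasts and 1 of 4 of proliferation. *Kdr*, the endothelial marker in the table, and *Ttr* had log2 fold changes of -0.42 and -2.95. When the fit also held the Y-linked sum, *Hapln1* had a log2 fold change of 0.71 (adjusted p = 0.126 from limma). *Vcan* had -0.50 in that fit (adjusted p = 0.363 from limma), so neither was called. In the same fit 2 of all genes were called, in place of 346. *Fibcd1* itself was not called in it (log2 fold change -3.68, adjusted p = 0.810 from limma). Most of the Y-linked sum (91.2% of its variance) was explained by genotype, so this fit cannot tell the Y-linked sum and the genotype apart.

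*Hapln1* and *Vcan* are neighbours that point towards each other. In GENCODE M21, where *Hapln1* runs from 89539796 to 89611652 and so differs from the deposited table, their ends are 43.7 kb apart and no annotated gene lies between them. A link protein also lies beside a lectican at *Hapln2* and *Bcan* on chromosome 3 (21.5 kb apart), at *Hapln3* and *Acan* on chromosome 7 and at *Hapln4* and *Ncan* on chromosome 8 (2.22 kb apart). *Hapln2* and *Bcan* are both on the minus strand, so they do not point towards each other. *Hapln2*, *Hapln3* and *Hapln4* have no value in the table, so *Hapln1* and *Vcan* is the pair for which both were measured. Within 1 Mb of them, the table holds *Edil3*, *Xrcc4* and *Tmem167*, which were chosen by position and had log2 fold changes of -0.04, 0.11 and 0.06 (adjusted p = 0.610, 0.608 and 0.456 from limma). None of these neighbours passed the test.

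The promoter of *Vcan* is shown because *Vcan* passed the test and stands beside the other gene that did. The run holds the 250 bases before its RefSeq start on GRCm38.p6, 5′ to 3′ on the strand of the gene, at chr13:89742513-89742762 (minus strand). Capitals mark matches on either strand to the GC box, spelled GGGCGG, the CCAAT box, or the TATA box, spelled TATAAA, and no matches overlapped. The RefSeq window of *Hapln1* lies inside an exon of its GENCODE M21 model, so it is not shown.
Vcan: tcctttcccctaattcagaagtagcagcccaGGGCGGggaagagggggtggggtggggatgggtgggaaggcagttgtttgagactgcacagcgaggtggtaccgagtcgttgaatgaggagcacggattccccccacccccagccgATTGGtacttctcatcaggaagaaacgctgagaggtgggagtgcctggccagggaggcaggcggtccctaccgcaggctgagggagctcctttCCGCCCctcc

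This window held 2 matches to the GC box and 1 to the CCAAT box, and 62.4% of its bases were G or C. Over 32851 such windows in the RefSeq table, 32.7% held the GC box, 33.8% the CCAAT box and 12.4% the TATA box, and the median G and C content was 52.4%. A match is a description of the letters and not evidence of binding.

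The other lecticans did not pass the test. *Ncan* (ENSMUSG00000002341, chromosome 8, 70093085 to 70120873, minus strand) codes for neurocan, which binds neuronal adhesion molecules. In WT CSPG A to D there were 12259.8, 14923, 13530.1 and 14000.2 normalized counts of *Ncan*, and the KO CSPG libraries had 13553, 13484, 13387 and 13239.9. All KO CSPG values lay within the range of WT CSPG. The ratio of KO CSPG to WT CSPG was 0.983 with a 95% interval of 0.910 to 1.06 (adjusted p = 0.871 from limma).

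*Bcan* (ENSMUSG00000004892, chromosome 3, 87987531 to 88000230, minus strand) codes for brevican, the lectican that is later abundant in perineuronal nets. Libraries A to D of WT CSPG had 1800.4, 2488, 2269 and 2422 normalized counts of *Bcan*, and the KO CSPG libraries had 2610.3, 2449, 2480.1 and 2328. Replicate A of WT CSPG was the lowest library, and the groups overlapped. The ratio was 1.11 with a 95% interval of 0.924 to 1.32 (adjusted p = 0.594 from limma). Aggrecan (*Acan*), the remaining lectican, had 259 ± 25.1 and 252 ± 28.7 normalized counts (SD, n = 4, adjusted p = 0.870 from limma).

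The sum of the 4 lecticans per kilobase was 2565 ± 227 normalized counts in WT CSPG and 2573 ± 41.6 in KO CSPG (SD, n = 4). *Hapln1* per kilobase came to 6.77%, 4.93%, 5.57% and 5.51% of that sum in WT CSPG A to D and to 8.35%, 7.89%, 8.41% and 7.70% in KO CSPG A to D. Every KO CSPG library had more link protein RNA for its lectican RNA than every WT CSPG library, with means of 5.69% ± 0.772 and 8.09% ± 0.348 (SD, n = 4). *Ncan* made up 74.1% ± 0.890 of the sum in WT CSPG against 72.5% ± 0.465 in KO CSPG (SD, n = 4). For *Vcan* these shares were 3.02% ± 0.217 and 2.62% ± 0.213 (SD, n = 4). These shares are a description and were not tested, since they hold the genes tested above.

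*Ptprz1* and *Cspg5* carry chondroitin sulphate on the cell surface. *Ptprz1* (ENSMUSG00000068748, chromosome 6, 22875502 to 23052916, plus strand) codes for a receptor phosphatase of glia and their precursors, whose secreted form is known as phosphacan and whose ligands include pleiotrophin. In WT CSPG A to D, *Ptprz1* had 4253, 5081, 4485 and 5222 normalized counts, and the KO CSPG libraries had 4875, 5048, 4641 and 4796. The KO CSPG values lay within the WT CSPG range, and the ratio was 1.02 with a 95% interval of 0.918 to 1.13 (adjusted p = 0.890 from limma). Pleiotrophin (*Ptn*) had 2916 ± 182 and 3067 ± 126 normalized counts (SD, n = 4, adjusted p = 0.386 from limma).

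*Cspg5* (ENSMUSG00000032482, chromosome 9, 110243783 to 110262576, plus strand) codes for neuroglycan C, a membrane CSPG of the nervous system. The WT CSPG libraries A to D had 2081, 2519, 2097 and 2514 normalized counts of *Cspg5*, and the KO CSPG libraries had 2957, 2550.2, 2629 and 2635. The groups did not overlap, as was so for 3 of the 9 genes and for 9.22% of all genes. The WT CSPG libraries fell into a low pair (A and C) and a high pair (B and D), and the high pair lay just under the lowest KO CSPG library. The ratio was 1.17 with a 95% interval of 1.03 to 1.34, and *Cspg5* did not pass the test (unadjusted p = 0.0248, adjusted p = 0.223 from limma). It passed when the prior variance was not made robust to outlying genes (adjusted p = 0.0360 from limma).

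Of the tenascins, *Tnc* was lower on average in KO CSPG and *Tnr* was not, and neither passed the test. *Tnc* (ENSMUSG00000028364, chromosome 4, 63959785 to 64047015, minus strand) codes for tenascin-C, a glycoprotein of radial glia and young astrocytes. The WT CSPG libraries A to D had 1803.5, 2523, 2120.1 and 2520.2 normalized counts of *Tnc*, and the KO CSPG libraries had 1789.95, 1897, 1702 and 1912. The KO CSPG libraries lay close together and 3 WT CSPG libraries were above them all, while replicate A of WT CSPG fell among them. The ratio was 0.821 with a 95% interval of 0.672 to 1.003 (adjusted p = 0.319 from limma). Without that replicate the log2 fold change was -0.38 in place of -0.28 and passed the test (adjusted p = 0.00691 from limma), and it also passed without the robust prior (adjusted p = 0.0423 from limma).

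*Tnr* (ENSMUSG00000015829, chromosome 1, 159523769 to 159931729, plus strand) codes for tenascin-R, which binds lecticans and is made by oligodendrocytes and some neurons. Normalized counts of *Tnr* were 1032, 1052, 989 and 960.0 in WT CSPG A to D and 1021, 1132, 1001 and 1003 in KO CSPG A to D. Apart from KO CSPG B, the libraries of both groups lay in the same range. The ratio was 1.03 with a 95% interval of 0.966 to 1.10 (adjusted p = 0.717 from limma). *Tnc* and *Tnr* each share exonic bases with a gene on the opposite strand in GENCODE M21, and counting by strand is not given in the sources used here, so their reads cannot be told apart from those of that gene.

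*Cd44* (ENSMUSG00000005087, chromosome 2, 102811141 to 102901665, minus strand) codes for a receptor by which cells hold hyaluronan. Libraries A to D of WT CSPG had 619, 679, 681 and 644 normalized counts of *Cd44*, and the KO CSPG libraries had 639, 601.4, 574 and 535. Of the KO CSPG libraries, 3 were below all WT CSPG libraries and A was not. The means were 656 ± 29.9 and 587 ± 44.1 normalized counts (SD, n = 4), a ratio of 0.895 with a 95% interval of 0.828 to 0.967. With an unadjusted p of 0.00658 from limma, *Cd44* did not pass after adjustment (adjusted p = 0.114). Unadjusted p-values under 0.05 were found for 4 of the 9 genes and for 16.2% of all genes.

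Libraries of the same genotype also differed from each other. Of the 4 WT CSPG libraries, replicate A was the lowest for 7 of the 9 genes, and it was the highest for *Hapln1*. The coefficient of variation in WT CSPG was 15.5% for *Tnc*, 13.8% for *Bcan*, 10.7% for *Cspg5*, 9.77% for *Ptprz1* and 8.10% for *Ncan*. It was 4.49% for *Hapln1*, 2.62% for *Vcan*, 4.11% for *Tnr* and 4.57% for *Cd44*. Set against counting alone, with reads taken in the same way, the variance of the *Ncan* reads was 84.9 times that of a Poisson count in WT CSPG and 1.43 times in KO CSPG, and for *Hapln1* these ratios were 1.40 and 3.27. The difference in spread between the genotypes was not tested.

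**Figure D4:**
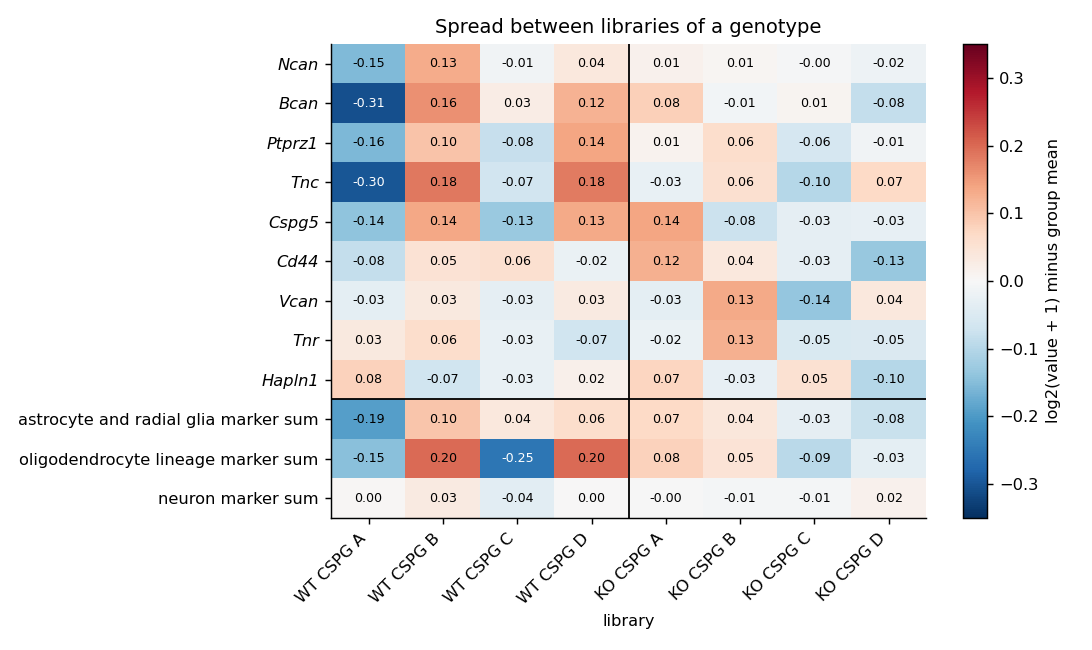
Log2(value + 1) of each gene minus the mean of its group, by library, with the summed levels of 3 marker lists below the line. In WT CSPG A, *Bcan* is at -0.31 and *Tnc* at -0.30, and the astrocyte and radial glia sum is at its lowest.

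*Ncan*, *Bcan*, *Ptprz1*, *Cspg5* and *Tnc*, which were grouped after their values were seen, varied together. Over the 8 libraries with the group means removed, their 10 pairs had a Pearson r between 0.697 and 0.94 (Spearman rho between 0.62 and 0.90). Some pairs with a gene outside this group came near these values. Examples are *Bcan* and *Cd44* (Pearson r = 0.62, Spearman rho = 0.67) and *Vcan* and *Tnc* (0.56 and 0.74). *Hapln1* had a Pearson r between -0.64 and -0.03 with the 5 genes of the group (Spearman rho between -0.71 and -0.14). With *Vcan* its Pearson r was -0.57 (Spearman rho = -0.83). Without WT CSPG A the Pearson r of the 10 pairs lay between 0.26 and 0.905, so the relation was weaker for some pairs without that library. All genes of a library share its RNA and its depth. The astrocyte and radial glia marker sum in WT CSPG A to D was 39811, 48673, 46721 and 47519 normalized counts, with A the lowest, and the oligodendrocyte lineage sum was 1166, 1480.4, 1083 and 1482, with A and C low. The part of these cells in the spread was not tested.

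Other genes of this matrix were read from lists, which held 63 genes, of which 44 were in the table. Of these 44, 3 were called higher and 3 lower (13.6%, against 2.88% of all genes). The median log2 fold change was 0.03 against 0.000156 over all genes. The lists were chosen with earlier results of these data known, so these shares are a description and not a test. Among 14 other chondroitin sulphate core proteins, 10 were in the table, 1 rose and 1 fell. *Spock3*, a testican of the nervous system, had 580.5 ± 50.8 normalized counts in WT CSPG and 727 ± 53.0 in KO CSPG (SD, n = 4, adjusted p = 0.0041 from limma). *Nrp1*, a semaphorin receptor that can carry the chain, fell from 6606 ± 273 to 5814 ± 255 normalized counts (SD, n = 4, adjusted p = 0.00235 from limma). *Bgn*, for biglycan, a small proteoglycan, had 189 ± 24.8 and 291 ± 65.1 normalized counts (SD, n = 4) and did not pass (adjusted p = 0.114 from limma).

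Of 22 ligands and partners, 18 were in the table, 2 rose and 0 fell, where 1.09% of all genes were called higher and 1.79% lower. *Egfr*, a growth factor receptor of glial precursors that tenascin-C can bind, had 254, 303, 317 and 317 normalized counts in WT CSPG A to D and 394, 436, 376 and 374 in KO CSPG A to D (adjusted p = 0.00147 from limma). The groups did not overlap for *Egfr*, as was so for 9.22% of all genes. *Cntn5*, for a contactin, rose from 54.4 ± 15.5 to 80.4 ± 10.3 normalized counts (SD, n = 4, adjusted p = 0.0446 from limma), with overlap. *Cntn1*, the contactin that binds *Ptprz1* and tenascin-R proteins, had 2542 and 2819 normalized counts on average and did not pass (adjusted p = 0.169 from limma).

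Of 11 proteases that cut lecticans and their inhibitor, 9 were in the table, 0 rose and 2 fell. Of all genes, 1.09% were called higher, 1.79% were called lower, and 9.22% had groups without overlap. *Adamts1*, a protease of versican and aggrecan, had 505, 541, 540.2 and 513 normalized counts in WT CSPG A to D and 417, 486, 414 and 431 in KO CSPG A to D, without overlap (adjusted p = 0.00866 from limma). *Timp3*, an inhibitor of such proteases, fell from 785 ± 59.8 to 659.6 ± 49.9 normalized counts (SD, n = 4, adjusted p = 0.0203 from limma). Of 12 genes of hyaluronan synthesis, cleavage and binding, 6 were in the table and none passed at an adjusted p under 0.05 from limma, with log2 fold changes from -0.07 to 0.22. The hyaluronan synthases in the table were *Has2*, with 48.1 and 53.9 normalized counts on average, and *Has3*, with 144 and 149.

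**Figure D5:**
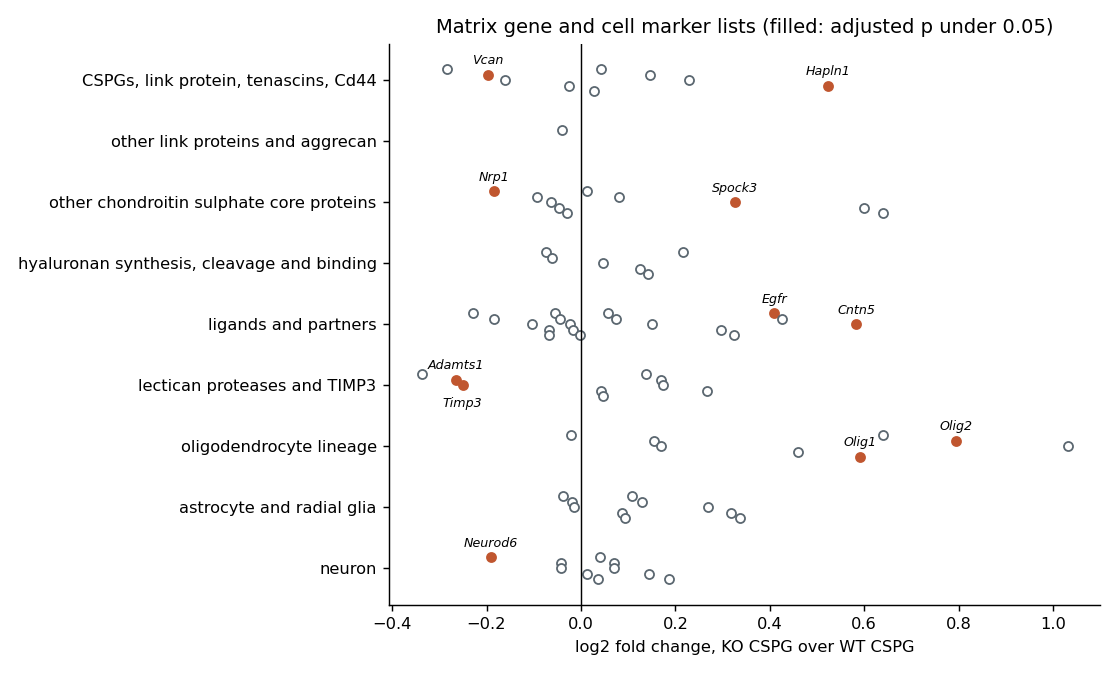
Log2 fold change (KO CSPG / WT CSPG) of the genes of each matrix list and of 3 marker lists, 1 point a gene, filled at an adjusted p under 0.05 from limma. Filled points lie on both sides of 0 in the upper row, with *Hapln1* at 0.52 and *Vcan* at -0.20, and to the right in the oligodendrocyte lineage row.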

How the data were processed

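Poly-A RNA was sequenced by the authors as short reads, aligned at a facility and processed with DESeq2 on Galaxy; the labels name mm10, and the aligner and counting program are not given in the sources used here. The deposited values, named counts, are a normalized signal: reads scaled by the size factor of their library. In every library 100% of values were whole multiples of 1 step (tolerance 1e-06 of a step), and 1 step was taken as 1 read for depth and counting error only. No gene has a mean under 40.7. The deposited table also holds the authors' own log2 fold change, standard error, Wald score and p-value, which were not used. The series labels 18 samples; the table has 8 of them, and 0 per-sample columns were left unused.

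Values were fitted as log2(value + 1) with limma 3.58.1 (trend, robust) in R 4.3.3, with Benjamini-Hochberg adjustment over 12012 genes. Because of the pseudocount, changes of low genes come out too small. The fit was tested on simulated data first. Gene models came from GENCODE M21, where 8 of the 9 genes have the coordinates of the table (all but *Hapln1*), and promoters from RefSeq (8 of 9 matched). Starts count from 1. The genes and lists were chosen with earlier results of these data known. Named genes are the 9 genes, *Fibcd1*, genes of the lists and, for the gene with the smallest p of the 9, the 5 genes with the highest Pearson correlation over the libraries. Outside this rule, the genes within 1 Mb of *Hapln1* and *Vcan* and genes of the cell marker lists are also named. Alternatives changed the pseudocount, filter, scaling, prior, covariate, block and libraries. The count models planned as alternatives were not run, because the table holds too few low values to check that 1 step is 1 read. No library had litter, sex or date in its labels.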

Additional observations from a re-analysis of the deposited data

Results flagged for a closer look

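Among the 9 genes and *Fibcd1*, each group of 4 libraries was searched for an extreme library by the Dixon ratio. Of 20 such groups, 2 held one, where chance gives about 1. *Tnr* had 1132 normalized counts in KO CSPG B, and the other KO CSPG libraries had between 1001 and 1021. *Fibcd1* had 182 normalized counts in WT CSPG D, and the other WT CSPG libraries had between 54.3 and 70.4. No explanation of these values was tested. Without KO CSPG B the log2 fold change of *Tnr* was 0.000877, with an adjusted p of 0.997 from limma. Without WT CSPG D that of *Fibcd1* was -4.09.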

How the results depend on the processing

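Of the 9 genes, 2 were called, and the count was 2 with pseudocounts of 0.1 or 10, both filters on low values, upper-quartile scaling and the replicate block. A prior variance with no trend gave 1 (80 of all genes called, in place of 346), a prior that was not robust gave 4 (349 of all genes called), and the Y-linked covariate gave 0 (2 of all genes called). Without 1 library it ranged from 1 to 3, and the number over all genes from 186 (without KO CSPG A) to 576 (without WT CSPG D). The cause was not tested. *Hapln1* was called in 16 of 17 alternatives and *Vcan* in 12 of 17. Adding the Y-linked sum to the fit turned the log2 fold change to -0.31 for *Bcan*, -0.37 for *Ptprz1* and -0.23 for *Tnr*, none of them called. Without 1 library, *Ncan* ranged from -0.0758 to 0.0187 and *Ptprz1* from -0.0239 to 0.0748. Between the WT CSPG and KO CSPG library of a letter, values with the group means removed had r = -0.07, 0.10, 0.28 and -0.01 across genes for A to D. These values do not settle whether libraries of a letter share a preparation. The replicate block gave 429 calls over all genes. Per kilobase of the longest annotated transcript, 7 of 9 genes kept their rank in WT CSPG. Count models and TMM scaling, planned as alternatives, were not run. Genes of low level are not in the deposited table, so changes of such genes were not analysed here.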

Other observations

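The 5 genes whose log2 values were most like those of *Hapln1* over the 8 libraries were *Ndn* (Pearson r = 0.98, Spearman rho = 0.76), *Rps3a1* (0.97 and 0.86), *Kcnab1* (0.96 and 0.88), *Bri3bp* (0.96 and 0.86) and *Omg* (0.96 and 0.90). The libraries include the genotype difference and share their depth, and these correlations are a description. *Ndn*, an imprinted gene of neurons, had 1828 and 3011 normalized counts on average in WT CSPG and KO CSPG. *Omg*, which codes for a surface glycoprotein of oligodendrocytes and neurons, had 115 and 159.9 normalized counts. *Kcnab1*, for a potassium channel subunit, had 58.1 and 96.7. *Rps3a1* codes for a ribosomal protein with near-identical copies in the genome, so its value of 344 and 438 normalized counts is uncertain.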
